A study of Mus musculus with 36 samples.

Results

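RNA-Seq of the atria was used to compare CUG960 mice that kept expressing expanded CUG repeat (CUGexp) RNA and received AAV9 vectors for both MBNL1 and MBNL2 with CUG960 mice in which the repeat RNA was switched off. The 6 libraries were chosen by their labels alone: the 3 atrial libraries of the MBNL1+MBNL2 cohort and the 3 of the +/-dox cohort, out of 36 libraries in the series and 18 from the atria. The question the comparison addresses is what combined MBNL expression leaves short of removal of the repeat.

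CUG960 is a mouse model of the heart disease of myotonic dystrophy type 1 (DM1). All animals carried TREDT960I (Hom), an interrupted CTG repeat in the human DMPK gene under a tetracycline response element, and MHCrtTA (Hem), which expresses the reverse tetracycline transactivator from the cardiomyocyte-specific α-myosin heavy chain promoter, so repeat RNA was made in cardiomyocytes while the mice ate doxycycline (dox) chow. Except for the -dox cohort, which never received dox, the mice were given dox from postnatal day 1. The +dox cohort stayed on it, the +/-dox cohort was returned to normal chow at 9 weeks, and at the same age 3 cohorts that remained on dox chow were injected in the tail vein with AAV9-3XFLAG-MBNL1 (MBNL1), AAV9-3XMYC-MBNL2 (MBNL2) or both (MBNL1+MBNL2). The vectors carry human cDNAs behind the human TNNT2 promoter. All atria were taken at 21 weeks, 12 weeks after vector or withdrawal, with 3 biological replicates in each cohort. The MBNL1+MBNL2 and +/-dox cohorts therefore differed in repeat RNA, in dox and in AAV9, and the effects of these on a gene cannot be told apart.

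In DM1, the transcript of the expanded repeat folds into hairpins that hold the muscleblind-like (MBNL) proteins in nuclear foci, and MBNL-dependent splicing, polyadenylation and RNA localization fail in heart and skeletal muscle. Extra MBNL protein can exceed what the repeat RNA binds, while withdrawal of dox stops the making of the repeat RNA itself. In the atria DM1 is known for conduction delay and arrhythmia, to which connexins and the sodium, potassium, chloride and calcium channels are central.

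The 6 libraries held between 55031987 and 76131431 expected counts, with 22553 to 23719 genes above 0. Replicates of a cohort correlated at Pearson's r of 0.9952 to 0.9967 across genes on log10(TPM + 1), with genes not being independent replicates. The atrial cardiomyocyte markers (Nppa, Myl7, Myl4, Sln, Bmp10, Dkk3 and Stard10) summed to 18500 to 25200 CPM (counts scaled by TMM-normalized library size) in MBNL1+MBNL2 and 24200 to 27400 CPM in +/-dox libraries, so the labelled tissue was present in both. All 3 MBNL1+MBNL2 libraries carried library numbers of the higher of the 2 ranges in the labels (set B), against 1 of the 3 +/-dox libraries, and replicate 3 of the other 5 cohorts, the set B library of each, had Xist above the sum of 4 Y-linked genes while no MBNL1+MBNL2 library did. Library set and sex therefore ran together in those cohorts, and the comparison that follows cannot separate them. When replicate 3 was compared with replicates 1 and 2 across the +dox, -dox, MBNL1 and MBNL2 atria, 309 of 17998 genes (1.72%) differed, of which 6 were among the genes called below, each in the opposite direction to its change there. Bulk RNA was measured, so fewer cells of a type and less RNA per cell cannot be told apart.

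MBNL1+MBNL2 atria and +/-dox atria differed in 328 of 19231 genes tested (1.71%) by edgeR's quasi-likelihood test, with a gene called where the adjusted p was under 0.05 and the fold change 1.5 or more. Of these, 162 (0.842% of the genes tested) were higher in MBNL1+MBNL2 atria and 166 (0.863%) were lower. The median log2 fold change over all genes was -0.02. Of the 328 genes, 318 had no overlap between the 3 libraries of each cohort, against 28.5% of all genes tested. The count rested in part on single libraries: without MBNL1+MBNL2 replicate 2 it was 196, without MBNL1+MBNL2 replicate 3 it was 214, and without X- and Y-linked genes it was 320. It was higher in other settings, at 435 without MBNL1+MBNL2 replicate 1, 520 in a fit of the 18 atrial libraries, 463 with DESeq2 and 645 with library set as a term. In a fit of the set B libraries alone, which leaves 1 +/-dox library, 90 genes were called, 47 of them among the 328.

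**Figure D1:**
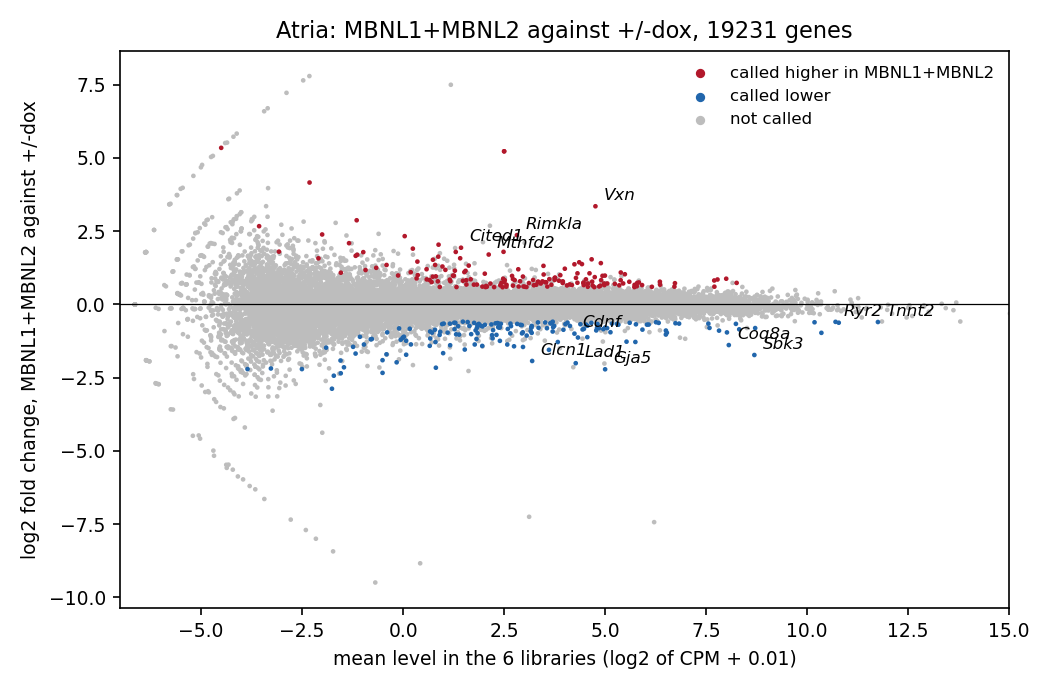
Log2 fold change of MBNL1+MBNL2 against +/-dox atria (y axis) against mean level in the 6 libraries (x axis, log2 of CPM + 0.01), 1 point per gene tested, with 162 genes called higher in red and 166 called lower in blue. Vxn stands highest among the labelled genes, at 3.35, and Gja5 lowest, at -2.21.

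Among the 12 falls named for their size, the largest was that of Gja5, which encodes connexin 40, the gap junction protein of atrial cardiomyocytes and of the conduction system. Gja5 (ENSMUSG00000057123.14; GRCm38 chromosome 3, 96904693 to 97077416, plus strand, protein coding) was at 12.3, 10 and 11.8 CPM in the MBNL1+MBNL2 libraries and at 35.8, 56.1 and 66.5 CPM in the +/-dox libraries. The cohorts did not overlap, which was a condition for every gene named here for its size. The lowest of its cohort was +/-dox replicate 1. The level in MBNL1+MBNL2 atria was 4.64-fold lower (log2 fold change -2.21, SE 0.22, adjusted p = 1.34e-07). The +dox libraries held 14.5 to 18.3 CPM and the -dox libraries 74.9 to 85.5 CPM, so that all MBNL1+MBNL2 libraries lay below the +dox libraries, a difference that did not pass the test (log2 fold change -0.49, SE 0.21, adjusted p = 0.406).

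Clcn1, the muscle chloride channel whose missplicing underlies DM1 myotonia in skeletal muscle, was at 4.13, 3.71 and 3.57 CPM in MBNL1+MBNL2 atria and at 13.7, 14.2 and 15.6 CPM in +/-dox atria. This was 3.81-fold lower (log2 fold change -1.93, SE 0.22, adjusted p = 7.13e-07). The -dox libraries, at 15.1 to 16.0 CPM, stood next to the +/-dox libraries. Clcn1 lies on chromosome 6 (42286685 to 42315756, plus strand, protein coding, ENSMUSG00000029862.15).

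The RefSeq promoters of these 2 channel genes are shown because they are the gap junction and ion channel genes with the largest falls. Each window runs from 250 bases before to 50 bases after the start on GRCm38.p6, plus strand, and capitals mark matches on either strand to the MEF2 consensus and to the T-box letters AGGTGTGA.
Gja5, chr3:97032152-97032451: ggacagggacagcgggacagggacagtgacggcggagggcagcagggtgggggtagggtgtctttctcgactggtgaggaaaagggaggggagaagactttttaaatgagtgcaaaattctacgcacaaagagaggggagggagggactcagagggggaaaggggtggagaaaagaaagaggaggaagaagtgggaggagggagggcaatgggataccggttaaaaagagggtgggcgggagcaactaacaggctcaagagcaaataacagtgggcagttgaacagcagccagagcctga
Clcn1, chr6:42286435-42286734: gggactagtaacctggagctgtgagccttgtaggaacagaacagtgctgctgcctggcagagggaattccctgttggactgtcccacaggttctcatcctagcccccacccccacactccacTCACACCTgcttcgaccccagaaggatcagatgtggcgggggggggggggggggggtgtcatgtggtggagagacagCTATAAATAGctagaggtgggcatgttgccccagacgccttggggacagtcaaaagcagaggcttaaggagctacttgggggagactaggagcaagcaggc

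The MEF2 match of Clcn1 lies at -51 to -42 and the T-box match at -128 to -121 from the start, and the Gja5 window held neither. Of the windows of all genes tested, 0.545% held the MEF2 consensus and 0.937% the T-box letters, and of all 32851 windows 0.557% and 1.28% did. Of the 133 windows of genes called lower, 3 held the MEF2 consensus (2.26%) and 2 the T-box letters (1.5%), and of the 159 windows of genes called higher, 1 and 0 did. The NKX2-5 letters TNAAGTG were in 9.02% of windows of genes called lower, 5.66% of those called higher, 9.07% of those of genes tested and 11.5% of all windows, and the GATA letters AGATAAG in 5.26%, 1.26%, 2.1% and 3.04%. The motifs do not overlap one another in the Clcn1 window, and a match is a description of letters only. Of the 24 genes named for the largest changes, 17 had a window.

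Coq8a, a kinase-like protein of coenzyme Q synthesis in mitochondria, was the most abundant of the 12 falls that held in every fit but that of set B alone. Its level was 149, 129 and 167 CPM in MBNL1+MBNL2 atria and 390, 410 and 364 CPM in +/-dox atria (2.62-fold lower, log2 fold change -1.39, SE 0.18, adjusted p = 1.71e-05). Unlike Gja5, Coq8a also differed from +dox atria, where it was at 63.7 to 73.3 CPM (log2 fold change 1.13, SE 0.18, adjusted p = 0.00111). The MBNL1+MBNL2 libraries therefore stood between the +dox and the +/-dox libraries without overlapping either.

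Lad1, which encodes ladinin, a basement membrane protein, was at 8.51, 5.90 and 8.72 CPM in MBNL1+MBNL2 atria and 28.6, 35.6 and 28.9 CPM in +/-dox atria (4.02-fold lower, adjusted p = 1.2e-05). Pnmt, the enzyme that makes adrenaline from noradrenaline, was at 0.587, 0.564 and 0.760 CPM against 2.58, 3.62 and 2.36 CPM (4.47-fold lower, adjusted p = 5.31e-05). Aldh3b3, an aldehyde dehydrogenase, was at 6.35, 5.64 and 6.67 CPM against 18.2, 19.3 and 17.2 CPM (2.93-fold lower, adjusted p = 4.84e-05). For all 3 genes the +dox libraries lay near the MBNL1+MBNL2 libraries and the -dox libraries near the +/-dox libraries, except that the -dox levels of Pnmt (1.90 to 2.32 CPM) were under every +/-dox level.

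Scn10a, the sodium channel Nav1.8, fell from 10.6, 13.8 and 10 CPM in +/-dox atria to 5.24, 2.97 and 4.36 CPM in MBNL1+MBNL2 atria (adjusted p = 0.00229), and its levels also lay under the 5.69 to 8.67 CPM of +dox atria, without passing the test (adjusted p = 0.392). Sbk3, a serine/threonine kinase of the SH3-binding domain family, was the most abundant of the 12 falls, at 269, 145 and 165 CPM against 634, 690 and 592 CPM. Its call (adjusted p = 0.0369) was lost without any of the 6 libraries but MBNL1+MBNL2 replicate 1. Dpysl5 (log2 fold change -1.54), Lypd1 (-1.42), Tbc1d10c (-1.37) and Hamp2 (-1.37) completed the 12 falls, and all 4 were at or under 5.92 CPM except Tbc1d10c, which reached 9.69 CPM in +/-dox atria. Lypd1 was among the 6 called genes that also differed between replicate 3 and replicates 1 and 2 of other cohorts. Its call was lost without any of the 6 libraries. That of Hamp2 was lost without replicate 2 or 3 of either cohort and that of Dpysl5 without MBNL1+MBNL2 replicate 2. Hamp2 has a near-identical paralog, Hamp, so the split of reads between them is uncertain.

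Among the 12 rises named for their size, the largest was that of Vxn, which encodes vexin, known from neural differentiation. Vxn (ENSMUSG00000067879.3; chromosome 1, 9601199 to 9627143, plus strand, protein coding) was at 51.4, 42.9 and 54.1 CPM in the MBNL1+MBNL2 libraries and at 4.84, 5.54 and 4.18 CPM in the +/-dox libraries, 10.2-fold higher (log2 fold change 3.35, SE 0.13, adjusted p = 2.32e-18). The +dox libraries held 28.7 to 31.2 CPM, under every MBNL1+MBNL2 library, and that difference was called as well (log2 fold change 0.72, SE 0.12, adjusted p = 0.000899). Vxn was thus farther from +/-dox atria with both vectors than without any.

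Rimkla, which joins N-acetylaspartate and glutamate into a dipeptide, was at 11.5, 12.4 and 11.5 CPM in MBNL1+MBNL2 atria and at 2.79, 2.27 and 1.83 CPM in +/-dox atria (5.15-fold higher, log2 fold change 2.36, SE 0.23, adjusted p = 1.3e-07). Cited1, a transcriptional coactivator of fetal tissues, was at 3.50, 5.08 and 4.23 CPM against 1.23, 1.04 and 1.08 CPM (3.82-fold higher, adjusted p = 0.00226). Ccne1, cyclin E1 of the G1/S transition, was at 3.03, 3.94 and 4.49 CPM against 1.18, 1.28 and 0.846 CPM (3.46-fold higher, adjusted p = 6.16e-05). The levels of Rimkla and Cited1 lay under every +dox library (adjusted p = 0.403 and 0.201), and those of Ccne1 overlapped with +dox.

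Other rises among the 12 were Sult4a1 (log2 fold change 2.33), the inward rectifier potassium channel Kcnj14 (2.04), Bpifb1 (1.90), the postsynaptic scaffold Shank2 (1.80), Nkain1 (1.63), the antisense RNA Sp3os (1.58) and Ogdhl (1.54). The calls of Sult4a1 and Shank2 were lost without MBNL1+MBNL2 replicate 2 or +/-dox replicate 1 or 3 (adjusted p up to 0.0986 and 0.157 over all alternatives). That of Bpifb1 was also lost without MBNL1+MBNL2 replicate 3 (up to 0.162), and those of Kcnj14 and Ogdhl without any library but MBNL1+MBNL2 replicate 1 (up to 0.245 and 0.276). Kcnj14 and Bpifb1 were also among the 6 called genes that differed between replicate 3 and replicates 1 and 2 of other cohorts. Their log2 fold changes there were -1.28 and -1.18 for replicate 3, opposite in sign to their rise. Library set and sex ran together in replicate 3, so their effects cannot be told apart. Without strand in the counting, Sp3os cannot be told apart from Sp3, and Gja5, Clcn1, Coq8a, Vxn and Rimkla also overlap genes of the opposite strand. The libraries were stranded, and the strand setting of the counting is not given in the sources used here.

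**Figure D2:**
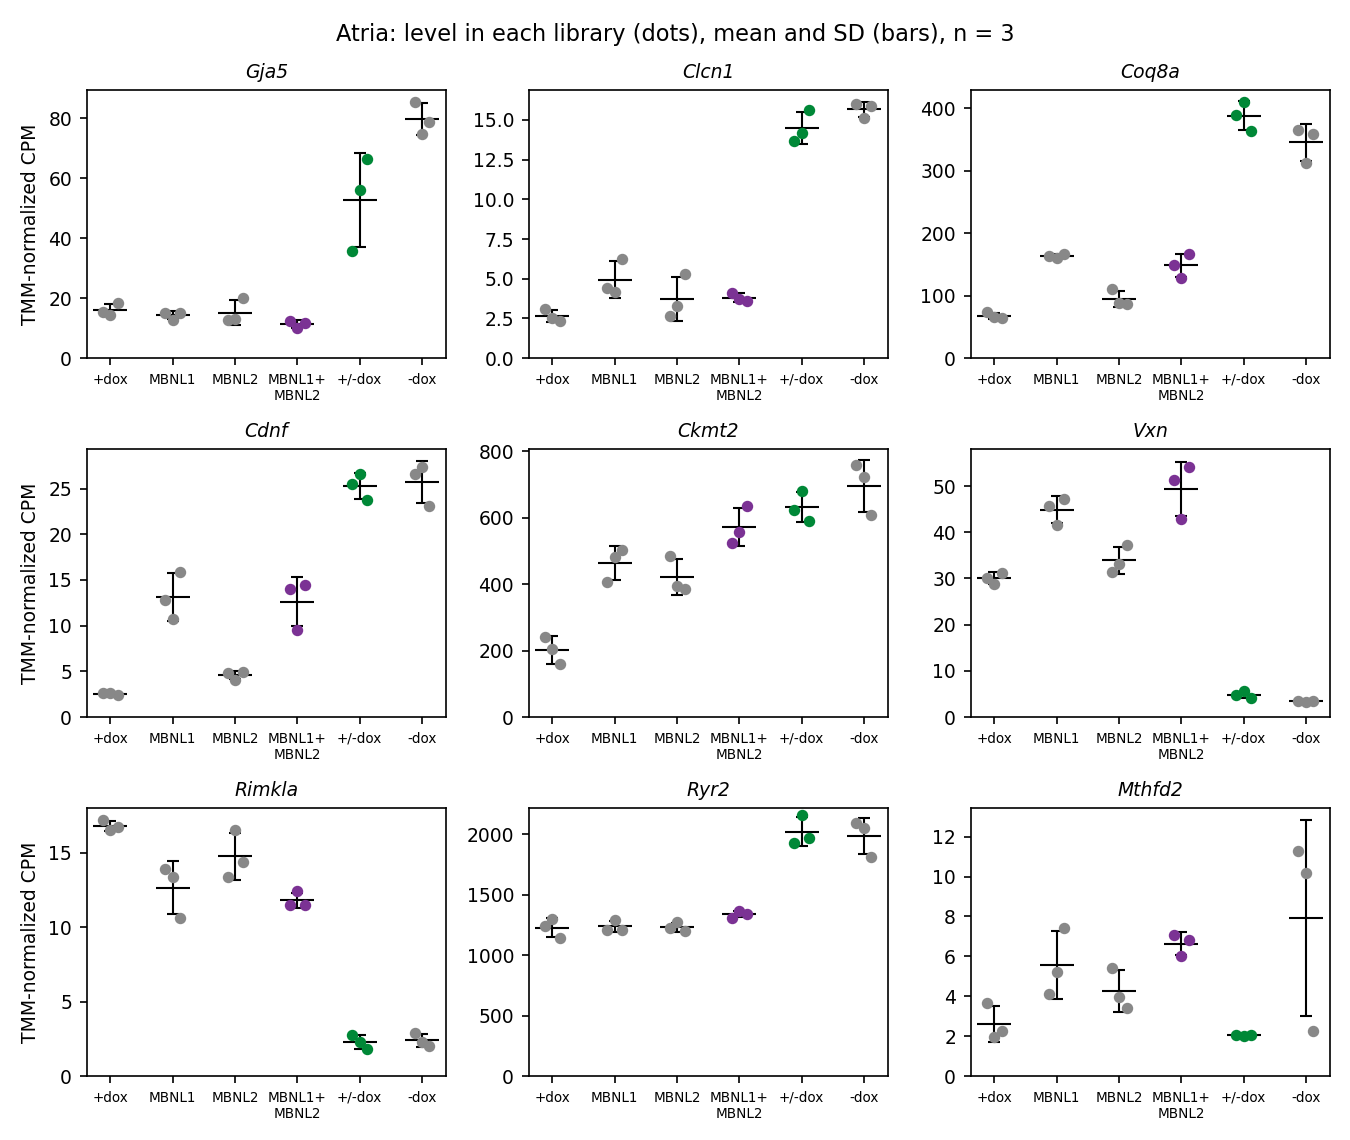
TMM-normalized CPM (y axis) of 9 genes in each atrial library of the 6 cohorts (x axis), with the mean and SD of 3 libraries; MBNL1+MBNL2 is purple and +/-dox green. In MBNL1+MBNL2 atria Gja5 lies just under and Clcn1 just above the +dox libraries, Coq8a and Cdnf lie between, Ckmt2 overlaps +/-dox, and Vxn exceeds +dox.

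To relate these differences to the repeat, genes called between -dox and +dox atria were used, a contrast that shares no library with the 6 compared here. Those cohorts also differ in dox itself, and no cohort here received dox without repeat RNA, so their effects cannot be told apart. The contrast called 1005 genes (5.23% of those tested), named repeat-responsive here, 544 higher and 461 lower in -dox than in +dox atria. Of the 544, 94 (17.3%) were lower and 1 was higher in MBNL1+MBNL2 than in +/-dox atria, and of the 461, 105 (22.8%) were higher and 1 was lower. Of the 18226 other genes, 127 (0.697%) were called. Thus 199 of the 328 genes (60.7%) were repeat-responsive genes that stood on the +dox side of +/-dox atria. These were 19.8% of the repeat-responsive genes. Of the 127 other genes called, 117 also lay on the +dox side by the sign of their -dox against +dox change. For 21 of the 127 that change had an adjusted p under 0.05 but fell short of the fold threshold. Without MBNL1+MBNL2 replicate 2, 132 repeat-responsive genes were called, against 201 with it.

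Called or not, most repeat-responsive genes pointed the same way. Of the 544 genes higher in -dox atria, 478 (87.9%) had a negative log2 fold change between MBNL1+MBNL2 and +/-dox atria, and of the 461 lower in -dox atria, 433 (93.9%) had a positive one, against 52.2% negative and 47.6% positive over all genes. The medians were -0.43 and 0.51, beside medians of 0.93 and -0.93 in the -dox against +dox contrast that chose the genes.

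Over the 199 genes, the mean log2 level of MBNL1+MBNL2 atria lay a median of 12.7% of the way from the +dox mean to the +/-dox mean, with quartiles at -2.06% and 28%. This is a description, since the genes were chosen for their distance from +/-dox atria. For 58 of them the MBNL1+MBNL2 mean was past the +dox mean, away from +/-dox. For 85 it had moved less than 25% of the way, for 51 between 25 and 50%, and for 5 between 50 and 75%. Cdnf, at 69% of the way, was among the last.

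**Figure D3:**
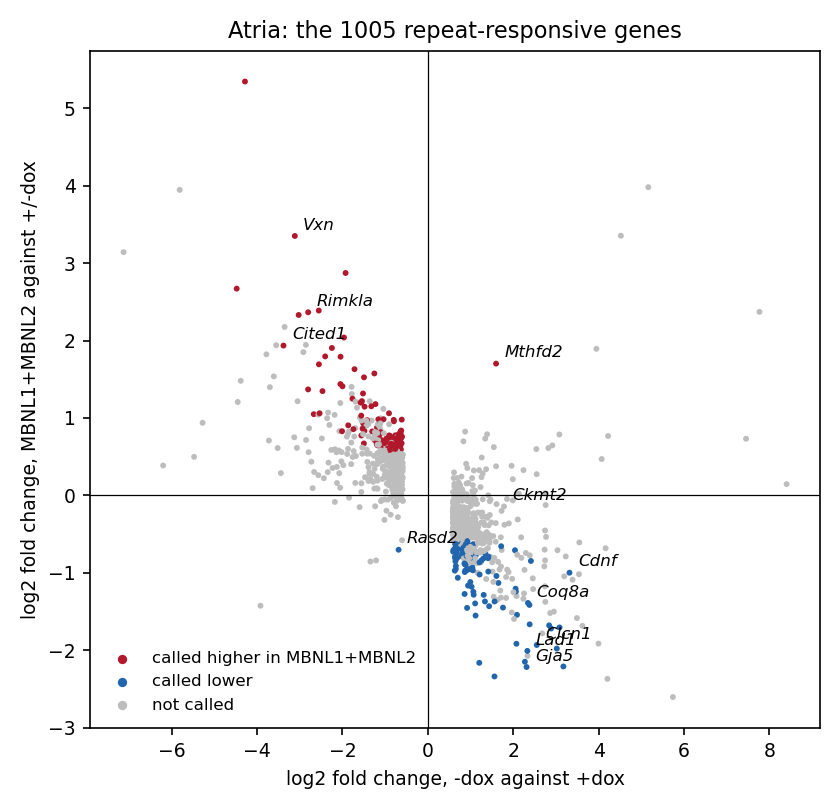
Each of the 1005 repeat-responsive genes by its log2 fold change in -dox against +dox atria (x axis) and in MBNL1+MBNL2 against +/-dox atria (y axis). Called genes lie in the upper left (105) and lower right (94), with Mthfd2 and Rasd2 the only called genes outside them.

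The exceptions were Mthfd2 and Rasd2. Mthfd2, the mitochondrial enzyme of folate metabolism that rises with the integrated stress response, was at 7.09, 6.01 and 6.82 CPM in MBNL1+MBNL2 atria and at 2.04, 2.02 and 2.06 CPM in +/-dox atria (3.25-fold higher, log2 fold change 1.70, SE 0.37, adjusted p = 0.00489). The -dox libraries held 11.3, 10.2 and 2.26 CPM, so replicate 3 of that cohort stood apart from the others, and the +dox libraries held 1.97 to 3.64 CPM. Rasd2, a small GTPase named after its values were seen, had a log2 fold change of -0.70 (adjusted p = 0.0338) and one of -0.68 between -dox and +dox atria, and its call was lost without replicate 2 or 3 of either cohort.

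Each atrial library was then given a position by its median over the 1005 genes, counted from 0 at the mean of +dox to 100 at the mean of -dox atria, with no test. The MBNL1+MBNL2 libraries stood at 34.6, 28.7 and 29.9 (31.1 ± 3.13, SD, n = 3) and the +/-dox libraries at 78.8, 78.2 and 86.6 (81.2 ± 4.67). The MBNL1 libraries stood at 28.8, 28.3 and 41.4 and the MBNL2 libraries at 20.2, 9.02 and 25.3. The MBNL1+MBNL2 libraries thus lay within the range of the MBNL1 libraries and above all MBNL2 libraries, and no MBNL library of any cohort reached a +/-dox library. Replicate 3, the set B library, stood highest in every cohort but MBNL1+MBNL2. All MBNL1+MBNL2 libraries were of set B, and each lay under MBNL1 replicate 3 (41.4). The part of library set and sex in this order was not tested. The +dox and -dox libraries define the scale and are not independent of it.

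The gap was present both in genes higher and in genes lower in -dox than in +dox atria. MBNL1+MBNL2 libraries stood at 33.6 ± 1.63 for the former and 27.9 ± 5.55 for the latter (SD, n = 3). In +/-dox libraries these positions were 82.1 ± 5.82 and 79.7 ± 3. With log2(TPM + 1) in place of log2 CPM the means were 30.4 and 80.7.

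**Figure D4:**
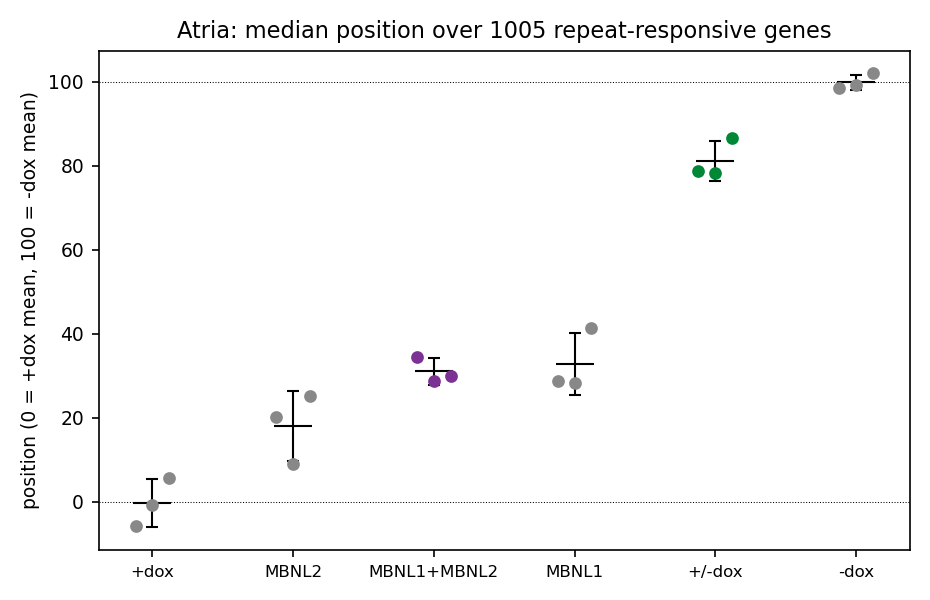
Position of each atrial library (dots) between the +dox mean (0) and the -dox mean (100), with the mean and SD of 3 libraries (bars). The MBNL1+MBNL2 libraries lie between 28.7 and 34.6 and the +/-dox libraries between 78.2 and 86.6. Replicate 3, the set B library, is the highest of every cohort but MBNL1+MBNL2, whose libraries are all of set B.

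Gene lists were then read for the comparison of MBNL1+MBNL2 with +/-dox atria. Over the 28 lists of pathways and complexes, 23 of 697 genes tested (3.30%) were called, in 13 of the lists, beside 1.71% of all genes. Of the 8 genes that the study follows for expression, 3 were lower (Ryr2, Cdnf and Gja5) and none was higher; the list was chosen on these samples and is not independent evidence of its direction. Ryr2, the calcium release channel of the sarcoplasmic reticulum, was at 1310, 1360 and 1340 CPM against 1930, 2160 and 1970 CPM, with a log2 fold change of -0.60 (SE 0.07, adjusted p = 1.78e-06) that passed the fold threshold narrowly and fell short of it under 6 of 14 alternatives. Cdnf, a neurotrophic factor of the endoplasmic reticulum, was at 14, 9.52 and 14.4 CPM against 25.5, 26.6 and 23.7 CPM (log2 fold change -1.0, SE 0.21, adjusted p = 0.00416).

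The other study genes were not called. Ckmt2, the mitochondrial creatine kinase, was at 524, 557 and 635 CPM in MBNL1+MBNL2 atria and 623, 680 and 590 CPM in +/-dox atria, overlapping, at a log2 fold change of -0.14 (SE 0.11, adjusted p = 0.537). Between MBNL1+MBNL2 and +dox atria, at 159 to 242 CPM, its log2 fold change was 1.50 (SE 0.12, adjusted p = 8.33e-10). The potassium channel Kcna4 also overlapped between MBNL1+MBNL2 (6.19 to 7.36 CPM) and +/-dox atria (6.34 to 6.69 CPM), at a log2 fold change of 0.01 (SE 0.17). Unlike Ckmt2, Kcna4 was not called between MBNL1+MBNL2 and +dox atria (log2 fold change -0.6, SE 0.17, adjusted p = 0.0968). Asph (0.37, SE 0.09) passed the adjusted p (0.00708) but not the fold threshold. The pacemaker channel Hcn4 (1.18, SE 0.54) passed the fold threshold but not the adjusted p (0.216), at 12.1 to 15 CPM against 2.99 to 7.89 CPM.

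Among MBNL, CELF and DM1 genes, edgeR called none of 9, with 5 at an unadjusted p under 0.05, and DESeq2 called Rbfox1 lower. Mbnl1 was at 209, 172 and 173 CPM in MBNL1+MBNL2 atria and 166, 167 and 158 CPM in +/-dox atria (log2 fold change 0.18, SE 0.09). Mbnl2 was at 340, 305 and 298 CPM against 249, 259 and 232 CPM (0.35, SE 0.09, adjusted p = 0.0155). The +dox libraries, which had no vector, held 325, 294 and 302 CPM of Mbnl2 (MBNL1+MBNL2 against +dox 0.03, SE 0.09, adjusted p = 0.95). Dmpk differed by 0.22 between MBNL1+MBNL2 and +/-dox atria (SE 0.09, adjusted p = 0.128). Mbnl3 was at or under 0.279 CPM in every one of the 6 libraries. The human MBNL cDNAs are not among the symbols, so these values do not check that the vectors were expressed.

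Ion channels changed both ways. Of 23 potassium channel genes, Kcnn1, the small-conductance calcium-activated channel SK1, rose (17.6, 18.5 and 19.4 CPM against 10.5, 10.7 and 10.4 CPM, log2 fold change 0.81, SE 0.11, adjusted p = 1.76e-05) and Kcnip2, the accessory subunit of the transient outward current, fell (-0.65, adjusted p = 0.0370), a call lost without any of the 6 libraries. Of 12 sodium and chloride channel genes, Scn4b, a sodium channel β subunit, rose (0.98, adjusted p = 0.0250, lost without any library but +/-dox replicate 2), while Scn10a and Clcn1 fell. Of 29 calcium handling genes, Cacna1d, the L-type channel Cav1.3 of atrial and nodal cells, rose (39.6, 40.4 and 44.3 CPM against 24.9, 27.3 and 23.5 CPM, log2 fold change 0.71, adjusted p = 0.000856). Ryr2 and Pln, the inhibitor of the sarcoplasmic calcium pump, fell, the latter by 0.61 on the log2 scale (adjusted p = 0.000509), at 1040, 764 and 970 CPM against 1470, 1490 and 1270 CPM. Of 15 connexin and intercalated disc genes, Gja5 fell and so did Gja1, connexin 43, at 268, 195 and 239 CPM against 335, 411 and 368 CPM (-0.66, SE 0.11, adjusted p = 0.000358).

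Of 21 cardiac sarcomere genes, 2 fell and none rose, and 16 had a negative value, with a list median of -0.29. Tnnt2, cardiac troponin T, was at 2810, 2770 and 2710 CPM against 4170, 4650 and 3740 CPM (-0.60, SE 0.09, adjusted p = 9.86e-05), and Tnnc1, troponin C, at 271, 319 and 329 CPM against 459, 561 and 589 CPM (-0.81, SE 0.13, adjusted p = 0.000138). The +dox levels, 2630 to 3110 CPM for Tnnt2 and 340 to 451 CPM for Tnnc1, were near or above those of MBNL1+MBNL2 atria. The atrial cardiomyocyte markers had a list median of -0.28, with none of 7 called (0 at an unadjusted p under 0.05, 0 by DESeq2), and all 7 negative. Of the ventricular cardiomyocyte markers, Myl2 was at 18.4, 11.6 and 7.64 CPM against 81.2, 22.5 and 48.8 CPM (-2.02, SE 0.83, adjusted p = 0.161). Myl3 had a log2 fold change of -2.14 (SE 0.87, adjusted p = 0.151) and Irx4 one of -1.86 (SE 0.92, adjusted p = 0.262). None of these overlapped between the cohorts, as was so for 28.5% of all genes tested. The other members of that list had smaller values, at -0.28 for Kcne1l, -0.20 for Hey2, 0.04 for Mypn and 0.41 for Lbh. The highest Myl2 level among these atria was 1.17% of the mean level in +/-dox ventricles. Tnnc1, Pln, Myot and Coq8a were higher in +/-dox ventricles, at 1570 to 1710, 6040 to 6350, 50.9 to 65.8 and 655 to 745 CPM. The part of the atrial and ventricular markers in these falls was not tested. Myot, a Z-disc protein, fell among 18 fast skeletal muscle genes (-0.94, adjusted p = 0.0420), a call lost without any of the 6 libraries. Of 16 fetal and hypertrophy genes, Nmrk2, a kinase of NAD synthesis, fell (-1.04, adjusted p = 0.0111) and Uchl1, a deubiquitinase, rose (0.92, adjusted p = 0.00308).

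Of 82 cytosolic ribosomal protein genes tested, 1 was called. The list median was -0.20, with 74 negative values, and 31 genes were lower at an adjusted p below 0.05 without a fold threshold, beside 3.06% of all genes, and none was higher. Rpl21, the gene called, was lower (154, 152 and 134 CPM against 225, 253 and 216 CPM, -0.66, adjusted p = 7.13e-07), with the uncertainty that it has many processed copies. Its -dox (171 to 172 CPM) and +dox levels (164 to 185 CPM) were both under every +/-dox level. Rpl21 was not called between -dox and +dox atria (-0.03) or between MBNL1+MBNL2 and -dox atria (-0.22). The 82 genes had a median of -0.03 between -dox and +dox atria, 0.03 for set B in the other cohorts, -0.16 between MBNL1+MBNL2 and +dox atria, and -0.11 between MBNL1+MBNL2 and -dox atria. In the ventricle, MBNL1+MBNL2 against +/-dox gave a median of -0.12.

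Among 23 integrated stress response genes, Mthfd2 and Aldh1l2, 2 enzymes of mitochondrial folate metabolism, rose, the latter with 116, 102 and 86.1 CPM against 60.8, 65.9 and 63.9 CPM (0.67, adjusted p = 0.00503), and Cth, cystathionine γ-lyase, fell (-0.96, adjusted p = 0.0273). The list median was 0.12. Hsph1, a chaperone of the HSP110 family, rose (65.9, 62.3 and 55.7 CPM against 34.5, 33.6 and 39.5 CPM, 0.77, SE 0.16, adjusted p = 0.00268), the only gene called of 18 in the heat shock list. Bhlhe40, a repressor in the circadian clock, was the only gene called of 18 clock genes (-0.68, adjusted p = 0.0157). Grk5, the kinase that desensitizes β-adrenergic receptors, was the only gene called of 18 sympathetic and muscarinic genes (0.61, adjusted p = 0.0128). Hsph1, Bhlhe40 and Cth were not called between -dox and +dox atria.

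Several of these list calls rested on single libraries. Those of Tnnt2 and Rpl21 were lost without +/-dox replicate 2, that of Gja1 without replicate 2 of either cohort, and that of Ryr2 without MBNL1+MBNL2 replicate 1 or +/-dox replicate 2. Those of Nmrk2 and Grk5 were lost without replicate 3 of either cohort and that of Aldh1l2 without MBNL1+MBNL2 replicate 1. Those of Pln and Bhlhe40 were lost without MBNL1+MBNL2 replicate 2 or +/-dox replicate 1 or 2, and that of Cth also without MBNL1+MBNL2 replicate 3.

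**Figure D5:**
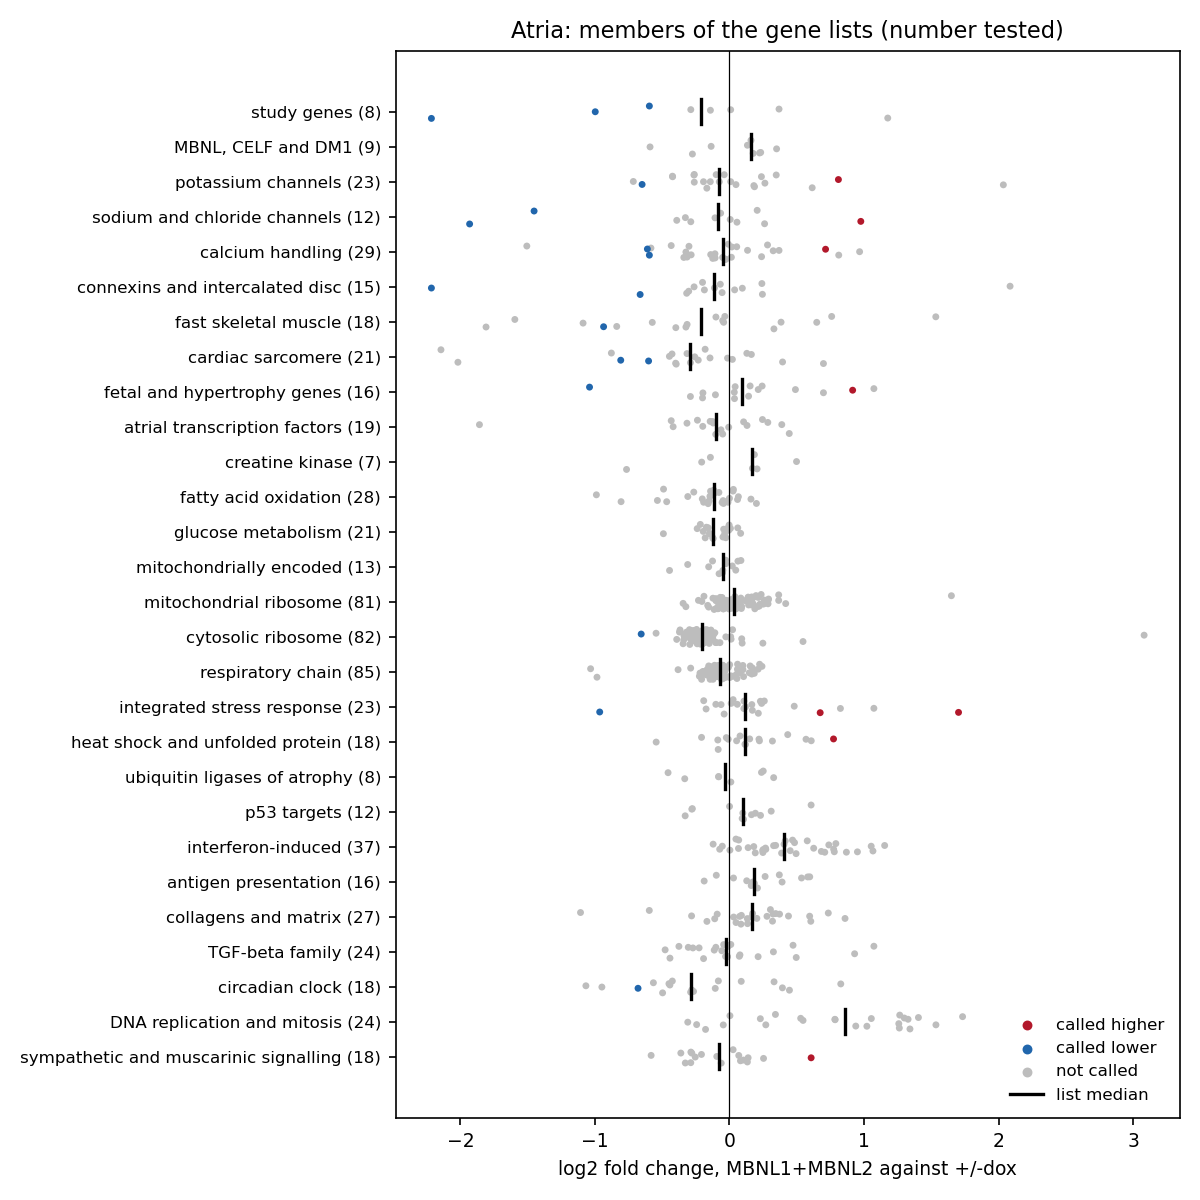
Log2 fold change of MBNL1+MBNL2 against +/-dox atria (x axis) for each tested member of 28 gene lists (y axis, number tested in parentheses); black bars are list medians, and called genes are red or blue. The 23 called genes spread over 13 lists, and the replication and mitosis list has a median of 0.86 without a called gene.

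The other 15 lists had no gene called by edgeR among 411 tested members, with 82 at an unadjusted p under 0.05 and 6 called by DESeq2 (Rbfox1, Cox6b2, Sparc, Inhbb, Mki67 and Ube2c). In 4 lists of energy metabolism the medians were close to 0. These were fatty acid oxidation (-0.11, with Fabp3 at -0.16 and Cd36 at 0.06), glucose metabolism (-0.12, with Gapdh at 0.01), the respiratory chain (-0.07) and the mitochondrially encoded genes (-0.05, with mt-Co1 at -0.31). Most of their members had negative values, at 22 of 28, 18 of 21, 63 of 85 and 9 of 13 in that order, against 52.2% of all genes. The mitochondrial ribosome (0.03), creatine kinase (0.17), atrophy ubiquitin ligase (-0.04, with Fbxo32 at -0.46 and adjusted p = 0.0504), TGF-beta (-0.02) and p53 target (0.10) lists also had small medians. Among atrial transcription factors the median was -0.10, with Tbx5 at -0.24 (SE 0.09, adjusted p = 0.113), Tbx20 at -0.05 and Gata4 at -0.10.

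Larger medians without a call were those of DNA replication and mitosis (0.86 over 24 genes, 10 of them at an unadjusted p under 0.05; Mki67 and Ube2c called by DESeq2) and of interferon-induced genes (0.41 over 37 genes, 1 at an unadjusted p under 0.05, with summed levels of 295 to 430 CPM against 221 to 380 CPM). Antigen presentation genes had a median of 0.18, with B2m at 0.18 (SE 0.55), and collagen and matrix genes 0.17, with Sparc at 0.60 (SE 0.20, adjusted p = 0.0742).

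Of the 21 marker lists of cell types, 1 held a gene called by edgeR, while DESeq2 called Cidea in the brown fat list and Myl3 in the ventricular cardiomyocyte list. The gene called by edgeR was Elovl3 in the brown fat list, at 0.998 CPM in MBNL1+MBNL2 replicate 1 and at or under 0.0787 CPM in the other 5 libraries. Ucp1, the defining brown fat gene, named after its values were seen, was at 13.5 CPM in that library and at or under 0.0513 CPM in the other 5. The call of Elovl3 was lost without MBNL1+MBNL2 replicate 1, and 435 genes were then called in all. All 7 brown fat genes had an unadjusted p under 0.05, 2 of them with a negative value (median 1.23). The list's summed level was 225 to 284 CPM in MBNL1+MBNL2 and 268 to 297 CPM in +/-dox libraries. That sum includes Cox7a1 (-0.18), which is also on the respiratory chain list, so it is not a measure of brown fat alone.

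Of the other marker lists, all 5 red blood cell genes were negative (median -1.17, summed level 63 to 279 CPM against 313 to 393 CPM), as were all 6 mesothelium genes (median -1.09, 26.4 to 65 CPM against 52.6 to 118 CPM). Macrophage (median 0.15), fibroblast (-0.19), endothelial (-0.05), smooth muscle (0.26) and Schwann cell (-0.26, 21.3 to 25.9 CPM against 29.2 to 30.3 CPM) markers had smaller medians. The ventricular cardiomyocyte list had a median of -0.28, with 3 of 7 genes at an unadjusted p under 0.05 and a summed level of 239 to 273 CPM against 263 to 339 CPM. The lung epithelium list had no gene tested. The part of these cells in the called genes was not tested.

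The same libraries were also compared with mice that never made the repeat RNA. MBNL1+MBNL2 and -dox atria differed in 580 genes (3.02%), 281 higher and 299 lower, and in 361 and 351 genes without MBNL1+MBNL2 replicate 2 or 3. Between +/-dox and -dox atria 2 genes were called (0.0104%), with 907 at an unadjusted p under 0.05. The comparison with -dox shares its MBNL1+MBNL2 libraries with the one above, so values are given side by side, and the difference between the counts was not tested. Gja5 had a log2 fold change of -2.81 against -dox and -2.21 against +/-dox atria, and Vxn one of 3.83 and 3.35. Clcn1 had one of -2.04 and -1.93, Cdnf of -1.02 and -1.0, and Ckmt2 of -0.28 and -0.14, the last not called in either. Mthfd2 differed from +/-dox (1.70) but was not called against -dox atria (-0.26, SE 0.35). Against +dox atria, 50 genes were called in MBNL1+MBNL2 (0.26%) and 767 in +/-dox atria (3.99%), and by DESeq2 101 and 868. Against +/-dox atria, 232 genes were called in the MBNL1 (1.21%) and 623 in the MBNL2 cohort (3.24%). These comparisons share cohorts with one another and with those above.

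Whether the atrial gap differed from that of the ventricle was tested as an interaction. In the left ventricle, MBNL1+MBNL2 and +/-dox mice differed in 102 genes (0.53%), of which 36 were also called in the atria, all in the same direction; these were 35.3% of the ventricular and 11% of the atrial genes. The difference between the tissues itself was called for 15 genes (0.078%), among them Aif1l, Aldh3b3, Armh4, Clba1, Dip2a, Dlg4, Eno1b, Gja5, Lclat1, Rbm19, Sh2d4a, Slc2a10, Tmem42 and Wfdc1. This count was 4 without replicate 2 of the MBNL1+MBNL2 atria or ventricles or without replicate 1 or 2 of the +/-dox atria. It was 5 to 8 without replicate 3 of either cohort in either tissue or without +/-dox ventricle replicate 2. The study took both tissues from the same animals. In a fit with the animal as a block, taking the replicate number within a cohort as the animal, 41 genes were called, 14 of the 15 among them, and the 4 genes described next remained called.

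Gja5 had the largest difference between tissues of the 4 described here, at -2.09 on the log2 scale (SE 0.31, adjusted p = 0.00203). Its ventricular levels were 4.86, 4.44 and 5.37 CPM in MBNL1+MBNL2 and 4.48, 4.27 and 7.29 CPM in +/-dox mice, overlapping and under every atrial level. Aldh3b3 (-2.02, SE 0.41, adjusted p = 0.0451) was at or under 0.529 CPM in all 6 ventricular libraries. Sh2d4a, an adaptor protein, fell in the atria (0.751, 0.499 and 0.659 CPM against 1.37, 1 and 1.74 CPM) and was at 11 to 17.9 CPM against 9.51 to 13.6 CPM in the ventricle (difference -1.55, adjusted p = 0.0367). Aif1l, an actin-bundling protein, was called in the ventricle (log2 fold change 1.04) and not in the atria (-0.32), with a difference of -1.37 (adjusted p = 0.0451).

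Of the 46 genes named here that were called between MBNL1+MBNL2 and +/-dox atria, 10 were called under every alternative run: Vxn, Rimkla, Ccne1, Cacna1d, Hsph1 and Kcnn1 as rises, and Gja5, Clcn1, Aldh3b3 and Tnnc1 as falls. In the set B libraries alone, 34 of the 46 were not called.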

How the data were processed

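RNA-Seq libraries were made by the authors from 250 ng of RNA of each atrial or ventricular sample with a stranded poly(A) kit and sequenced as paired reads in a 150 cycle run. Per the labels and the paper, reads were aligned to mm10 with STAR 2.7.10b and quantified on GENCODE M25 with RSEM 1.3.1. The deposited expected counts are RSEM estimates per gene symbol without normalization for library size, and the deposited TPM table is scaled for gene length and library by RSEM. TPM was used for replicate correlations and as an alternative for positions.

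After rounding of the expected counts, the 36 libraries were fitted together in edgeR 4.0.16 (R 4.3.3, limma 3.58.1) with 1 mean for each of 12 groups, TMM normalization, filterByExpr and robust quasi-likelihood tests. Genes were called at a Benjamini-Hochberg adjusted p under 0.05 with a fold change of 1.5 or more. Levels are CPM from TMM-normalized library sizes, log2 levels use a prior count of 2, and standard errors come from the F statistic. The fit was tested on simulated data, where it called 9 of 50 genes changed 1.5-fold, 30 of 48 changed 2-fold and 41 of 49 changed 4-fold. It also called 3 unchanged genes. The genes changed 1.5-fold lay on the fold threshold itself, so an estimate just under it was not called whatever its p. Their median absolute log2 fold change was 0.542, against a threshold of 0.585. A gene that was not called may therefore still differ by 1.5-fold or 2-fold. DESeq2 1.42.0 was an alternative. Atria and ventricles came from the same animals in the study's sample list. The labels do not say which, so the tissues were fitted without an animal term. An alternative chosen after seeing the data took cohort and replicate number as the animal. Deviations from group means correlated at 0.0407 to 0.257 between same-numbered atria and ventricles of a cohort and at -0.195 to 0.104 between others. p-values rest on the spread between biological replicates within a group, estimated over the 12 groups of both tissues together.

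Coordinates are from GENCODE M21 (GRCm38), which held 96.4% of 55291 symbols. Promoter sequences are from RefSeq. Named genes are those the study follows, Mbnl1, Mbnl2, Mbnl3 and Dmpk, the 12 largest rises and falls among called genes with a mean of at least 1 CPM, no overlap and a symbol that is neither a predicted model nor on the sex-linked list, called members of the gene lists, the largest called differences between tissues (up to 5) and, for lists with no call, up to 3 abundant members; Ucp1 and Rasd2 were named after their values were seen. The comparison, lists and rules were chosen with earlier results of these data known. Splicing, reads, the human MBNL cDNAs and the repeat transgene were not analysed here, and a few genes are not reported here.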

Additional observations from a re-analysis of the deposited data

Results flagged for a closer look

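The gap between MBNL1+MBNL2 and +/-dox mice differed between atria and ventricle for 15 genes by the interaction test of edgeR, with 1427 genes at an unadjusted p under 0.05 and 41 called by DESeq2. The log2 differences (atria minus ventricle) of 4 of these genes were -2.09 for Gja5, -2.02 for Aldh3b3, -1.55 for Sh2d4a and -1.37 for Aif1l. The atrial and ventricular log2 fold changes were -2.21 and -0.13 for Gja5, -1.55 and 0.47 for Aldh3b3, -1.10 and 0.45 for Sh2d4a, and -0.32 and 1.04 for Aif1l. With 3 libraries in a group, single libraries were not tested as outliers.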

How the results depend on the processing

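The counts below are for MBNL1+MBNL2 against +/-dox atria, against -dox atria, and for the difference between tissues, in that order, with 328, 580 and 15 as reported. Leaving out each compared library gave 196 to 435, 351 to 591 and 4 to 21 genes. Adjusted p alone gave 1320 and 1884, the 18 atrial libraries alone gave 520 in the first, no filter gave 8 in the last, and DESeq2 gave 41 in the last. Library set as a term gave 645, 953 and 37, and set B libraries alone gave 90, 206 and 1, the last with 1 library in each other cohort, assumed to vary like the rest. The repeat-responsive genes called (201 as reported) were 320 with library set as a term and 132 to 216 without each library. Under the replicate block the counts were 360, 607 and 16, and same-numbered MBNL1+MBNL2 and +/-dox libraries correlated at -0.00571, -0.086 and -0.0295, so numbers did not pair samples across cohorts. An animal block over both tissues, chosen after seeing the data, gave 41 for the difference between tissues. Elsewhere the +dox comparison of MBNL1+MBNL2 went from 50 to 101 with DESeq2 and 132 on adjusted p alone, and MBNL1 against +/-dox from 232 to 354 in atrial libraries alone and 884 on adjusted p alone. Adjusted p alone also gave 3060 for -dox against +dox (1005), 2426 for +/-dox against +dox (767), 2124 for MBNL2 against +/-dox (623) and 341 for the ventricle (102). The cause of these shifts was not tested, apart from the fewer samples or the absent fold threshold of some settings. Positions moved by less than 1 SD. Over 14 alternatives no named gene reversed a call, and of 1368 values 1226 kept their side of the thresholds, 136 fell short and 6 newly passed. Levels far under 1 CPM, such as those of Elovl3 and Mbnl3, rest on few counts.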
